A study of Rattus norvegicus with 288 samples.

Results

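Heart RNA taken 1 h after the end of dosing was compared between rats given temsirolimus and rats given its vehicle. Of the 288 arrays of the series, 32 were heart arrays at this hour, and 31 were used: 15 treated rats and 16 control rats, each rat with 1 heart array. All were male Sprague-Dawley rats, 7 to 8 weeks of age, with an indwelling femoral vein cannula and free access to food and water. The treated rats received one bolus of temsirolimus into the vein at 0.3 mg/kg, and the controls received the temsirolimus vehicle (TEM_vehicle, at 0 mg/kg). Every rat was then dosed by mouth 30 minutes later, so no rat received the first agent alone. The oral agent was sterile water, the vehicle mixture F68/PG/PEG400, sunitinib (5 mg/kg) or the kinase inhibitor sorafenib, dosed at 25 mg/kg. Each had 4 treated and 4 control rats, except sorafenib, which had 3 treated and 4 control rats. The fourth rat given temsirolimus and sorafenib, 6M68, was left out because its heart array also carried liver RNA. The piece sampled was the apex with parts of the left and right ventricles, and the rats were intact animals, so a measured change may come from any cell type of that piece. In bulk tissue, fewer cells of a type and less RNA per cell cannot be told apart.

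Temsirolimus is a derivative of rapamycin that binds the small immunophilin FKBP12 (encoded by Fkbp1a), and the bound pair inhibits the kinase mTOR within its complex mTORC1. That complex couples amino acid and growth factor supply to protein synthesis, ribosome production and the restraint of autophagy, and in heart muscle it is known for its part in growth of the myocytes. Sunitinib and sorafenib inhibit receptor tyrosine kinases and other kinases. MondoA and ChREBP are transcription factors that respond to sugar phosphates, and Txnip and Arrdc4 are among their known targets. Each value below is a log2 signal from an Affymetrix Rat Genome array, and each difference is a difference of log2 signals between treated and control rats.

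The labelled tissue was checked with cell markers before any comparison. The mean log2 signal of 13 cardiomyocyte markers lay between 13.47 and 13.96 in the 31 hearts, against 5.59 to 6.09 in the livers of the same rats. The mean of 13 hepatocyte markers lay between 5.91 and 9.91 in these hearts and between 14.7 and 14.8 in the livers. In the heart array of rat 6M68 the hepatocyte level was 14.4 and the cardiomyocyte level was 13.2, so both tissues were present there, whereas its liver array read 14.8 and 5.68. Among the arrays kept, the hepatocyte level followed the array set more than the treatment. In array set 1 its median was 6.18 in controls and 6.08 in treated rats, and in set 2 it was 7.08 and 7.42, with the highest value, 9.91, in treated rat 5M55. No member of any of the 15 cell marker lists passed the adjusted test between treated and control hearts.

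Control rat 8M92, given TEM_vehicle and sorafenib, stood apart. Its cardiomyocyte level of 13.5 and endothelial level of 9.54 were the lowest of the 31, and its macrophage level of 9.20, B cell level of 6.52 and skeletal muscle level of 7.53 were the highest. The highest adipocyte levels, 8.11 and 8.35, belonged to treated rats 3M25 and 3M26, while the group medians were 7.37 in controls and 7.39 in treated rats. The 4 genes called below were also called without 8M92, without 3M25 and 3M26, and with the hepatocyte level as a covariate.

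**Figure D1:**
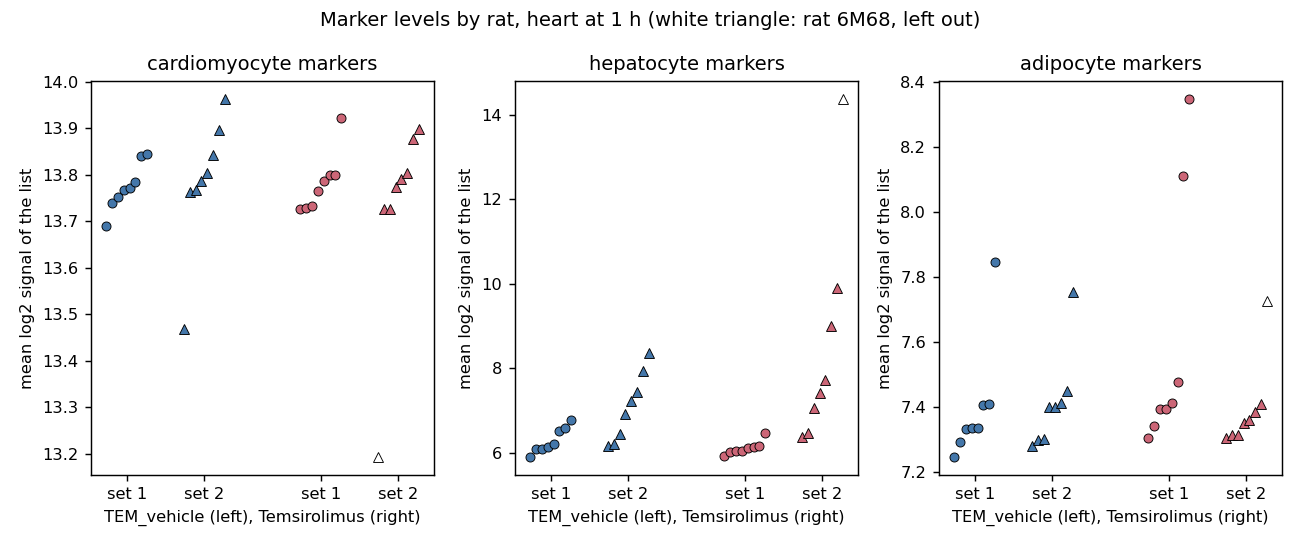
Mean log2 signal (vertical axes) of the cardiomyocyte, hepatocyte and adipocyte marker lists in each heart array at 1 h, with 1 point per rat, controls in blue on the left and treated rats in red on the right, circles for array set 1 and triangles for set 2. Treated and control rats overlapped for all 3 lists, and rat 6M68 (white triangle, left out) read 14.4 for the hepatocyte markers.

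In heart 1 h after the oral dose, which came 30 minutes after temsirolimus, 4 genes rose: Txnip, Klf10, Klf11 and Arrdc4. The first and last encode related alpha-arrestins, and Klf10 and Klf11 encode related Kruppel-like repressors. They were 4 of 14218 genes tested, or 0.0281%, in limma's moderated test with the oral agent and the array set as blocks and an adjusted p under 0.05. No gene fell. At an unadjusted p under 0.05 there were 592 genes (4.16%), 226 higher (1.59%) and 366 lower (2.57%), and the median log2 change over all genes was -0.01. For 0 of the 14218 genes were all treated rats above or all below all controls. When all 31099 probe sets were tested instead of 1 per gene, 4 were called, and they belonged to the same 4 genes.

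**Figure D2:**
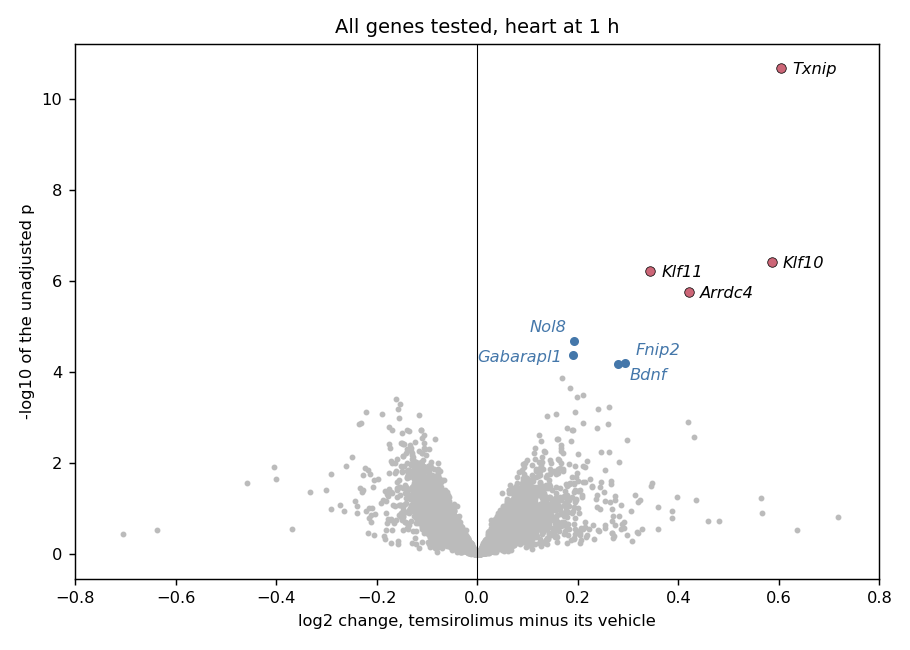
Log2 change between treated and control hearts at 1 h on the horizontal axis against the negative log10 of the unadjusted p on the vertical axis, with 1 point per gene. The 4 called genes (red) lie above all others on the side of higher signal, and Nol8, Gabarapl1, Fnip2 and Bdnf (blue) are the next by p.

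Txnip encodes an alpha-arrestin that binds thioredoxin and promotes internalization of glucose transporters. Its log2 signal in the 15 treated rats ran from 12.4 through a median of 12.7 to 13.1, and in the 16 controls from 11.6 through 12.1 to 12.8. The groups overlapped through the upper controls: all 15 treated rats were above the control median, 13 of 16 controls were below the lowest treated rat, and 5 treated rats were above the highest control, 8M86. Without regard to that one control, 11 treated rats were above every other control. The log2 difference was 0.60 ± 0.058 (SE), a 1.52-fold higher signal, with a 95% interval of 0.49 to 0.72 and an adjusted p of 3.07e-07 in limma's test. The group means were 12.7 ± 0.236 (SD, n = 15) and 12.1 ± 0.300 (SD, n = 16), so the difference exceeded the SD of either group.

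Arrdc4 encodes a second alpha-arrestin that, like the Txnip protein, limits glucose uptake. Its log2 signal ran from 8.26 through 8.62 to 9.04 in treated rats and from 7.79 through 8.28 to 8.61 in controls. The overlap came from both sides: 7 of 16 controls were below the lowest treated rat, 4M38, which was itself below the control median. The other 14 treated rats were above that median, 9 were above the highest control, 1M1, and 13 were above the next highest. The log2 difference was 0.42 ± 0.071 (SE), or 1.34-fold, with a 95% interval of 0.28 to 0.57 and an adjusted p of 0.00625 in limma's test. The lowest control value belonged to rat 8M92, and without that rat the log2 difference was 0.39 and remained past the threshold.

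The promoter of Arrdc4 is shown because its bases upstream of the annotated gene hold CACGTG, the core of the E-box read by MondoA and ChREBP. The bases upstream of the annotated gene, at chr1:131793439-131793675 on the minus strand of RefSeq build GRCr8, are printed 5′ to 3′. Capitals mark CACGTG and the letters CCAAT or their reverse complement ATTGG.
Arrdc4: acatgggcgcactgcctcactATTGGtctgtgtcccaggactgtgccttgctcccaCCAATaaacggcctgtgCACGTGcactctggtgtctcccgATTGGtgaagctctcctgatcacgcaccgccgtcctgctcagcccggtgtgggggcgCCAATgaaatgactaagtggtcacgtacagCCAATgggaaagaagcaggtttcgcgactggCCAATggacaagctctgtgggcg
These 237 bases hold 1 CACGTG and 6 matches to CCAAT on both strands, none overlapping another. Over 33469 promoters of 300 bases, counted from 250 before to 50 after each annotated start, 6.42% held CACGTG, 37.5% held CCAAT and 2.32% held both. Only 14 promoters (0.0418%) held 6 or more matches to CCAAT. The paired E-box, as known from carbohydrate response elements, was searched only as 2 exact CACGTG with 5 bases between them. That strict form was in 0.00299% of promoters and in neither called promoter at hand. Pairs that depart from these letters were not searched. A match to these letters describes the sequence only. The RefSeq table used held promoters of 2 of the 4 called genes, Arrdc4 and Klf11, and the others were Txnip and Klf10.

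Klf10 encodes a zinc finger repressor first described as an early gene induced by TGF-beta, and it is also induced by sugar. Its log2 signal ran from 9.36 through 9.64 to 10.3 in treated rats and from 8.49 through 9.15 to 9.83 in controls. All 15 treated rats were above the control median and 13 of 16 controls were below the lowest treated rat, while 5 treated rats were above the highest control, again 8M86. The log2 difference was 0.59 ± 0.090 (SE), or 1.5-fold, with a 95% interval of 0.40 to 0.77 and an adjusted p of 0.00279 in limma's test. Rat 4M38 was the highest and rat 3M32 the lowest treated rat for both Klf10 and Txnip.

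Klf11 encodes the closest relative of Klf10, also a repressor induced by TGF-beta and known for its role in insulin gene expression. Its log2 signal ran from 8.36 through 8.61 to 9.07 in treated rats and from 7.94 through 8.31 to 8.55 in controls. This gene had the most treated rats, 10 of 15, above the highest control, 2M20, and all 15 were above the control median. The log2 difference was 0.34 ± 0.055 (SE), or 1.27-fold, with a 95% interval of 0.23 to 0.46 and an adjusted p of 0.00288 in limma's test. The call rests on 1 of 3 probe sets: the others gave 0.11 ± 0.041 (unadjusted p = 0.0131) and 0.19 ± 0.10. It also ended when rat 6M68 was kept, at a log2 difference of 0.31 and an adjusted p of 0.0847 in limma's test. The Klf11 promoter is shown beside that of Arrdc4, with the same marks, from chr6:47014198-47014311 on the plus strand of GRCr8.
Klf11: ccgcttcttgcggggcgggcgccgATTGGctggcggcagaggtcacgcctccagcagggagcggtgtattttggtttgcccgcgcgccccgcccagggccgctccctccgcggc
These 114 bases upstream of the annotated gene hold 1 match to CCAAT and no CACGTG. One CACGTG lay further on, 21 bases before the start used for the promoter table and inside the annotated gene, where no bases are printed. Neither promoter held GTAAACA, the core bound by forkhead factors, which 3.78% of promoters held.

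**Figure D3:**
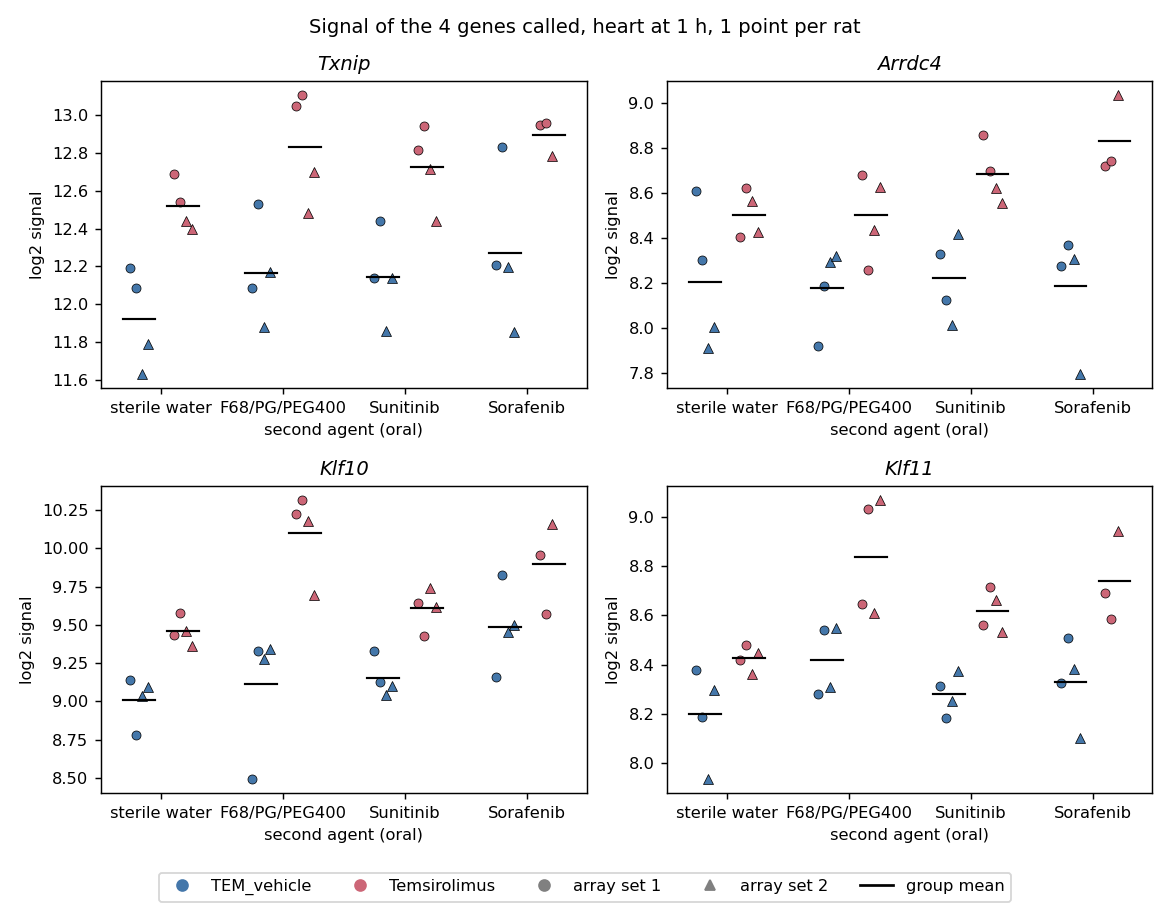
Log2 signal (vertical axes) of Txnip, Arrdc4, Klf10 and Klf11 in each heart at 1 h by oral agent (horizontal axes), with 1 point per rat, controls in blue, treated rats in red, the array set as circle or triangle and a line at each group mean. In every oral agent group the treated mean was above the control mean for all 4 genes.

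The 4 oral agents split the same rats into 4 smaller comparisons, each with its own controls. The 4 genes were chosen in the fit over all these rats, so higher means in each part are no separate support. The values come from a single fit of all groups, with a shared variance and array set term. The Txnip difference was 0.59 ± 0.12 (SE) with sterile water, 0.67 ± 0.12 with F68/PG/PEG400, 0.58 ± 0.12 with sunitinib and 0.57 ± 0.13 with sorafenib. These were alike within their errors, and with water the 4 treated values, 12.4 to 12.7, did not overlap the 4 control values, 11.6 to 12.2, while with each of the other agents the groups overlapped. The share of all genes whose groups did not overlap in this direction with water was 0.689%. The Klf10 difference varied more: 0.45 ± 0.16 with water, 0.99 ± 0.16 with F68/PG/PEG400, 0.46 ± 0.16 with sunitinib and 0.42 ± 0.18 with sorafenib. The Klf10 groups did not overlap with water, F68/PG/PEG400 or sunitinib, and they overlapped with sorafenib. With sunitinib 0.731% of all genes were without overlap in this direction. With F68/PG/PEG400 the treated rats read 9.69 to 10.3 and the controls 8.49 to 9.34, where 1.58% of all genes were without overlap in this direction. The lowest of those controls, 2M13, read 8.49, against 9.28 to 9.34 in the others.

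The Klf11 difference was 0.23 ± 0.11 with water, 0.42 ± 0.11 with F68/PG/PEG400, 0.34 ± 0.11 with sunitinib and 0.41 ± 0.12 with sorafenib. The groups did not overlap with F68/PG/PEG400, sunitinib or sorafenib. For Arrdc4 it was 0.30 ± 0.14, 0.32 ± 0.14, 0.46 ± 0.14 and 0.64 ± 0.15 in the same order, without overlap for sunitinib and sorafenib. In the sunitinib rats 0.731% and in the sorafenib rats 4.67% of all genes were without overlap in this direction. So the sizes ordered differently for each gene, and a limma test of the difference among the 4 agents called 0 of 14218 genes, against 1054 at an unadjusted p under 0.05. Its adjusted p was 0.985 for Txnip, 0.659 for Klf10, 0.878 for Klf11 and 0.783 for Arrdc4, which does not show that the agents left the response alike.

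The rats also fell into 2 array sets, and dosing had been done on 2 consecutive days. Whether the sets are those days is not stated. The log2 difference in set 1 and set 2 was 0.57 and 0.64 for Txnip, 0.62 and 0.56 for Klf10, 0.30 and 0.39 for Klf11 and 0.36 and 0.49 for Arrdc4. All 4 genes were higher in treated rats within both sets, which is no separate support, as these rats served to choose the genes. In set 2 neither Txnip nor Arrdc4 overlapped between groups, where 0.0281% of all genes were without overlap in this direction, and in set 1 both overlapped. A limma test of the difference between sets called 0 genes, against 449 at an unadjusted p under 0.05. With fewer rats the calls thinned: set 1 alone gave 0 called genes, set 2 alone 2, the rats given oral vehicles alone 1 (Txnip) and the rats given oral kinase inhibitors alone 0. That last count rested on control rat 8M92: without it 4 genes were called in the rats given kinase inhibitors, namely Arrdc4, Bdnf, Fnip2 and Rab30.

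Of the genes closest below the threshold, most were also higher. Nol8, a nucleolar protein of ribosome assembly, differed by 0.19 ± 0.038 (SE) with an adjusted p of 0.0595 in limma's test, and its other probe set gave 0.12 ± 0.065. Gabarapl1, an autophagosome protein of the ATG8 family, differed by 0.19 ± 0.040 (adjusted p = 0.101 in limma's test), and its other probe set gave 0.25 ± 0.080. Fnip2, which pairs with folliculin to relay amino acid supply to mTORC1, differed by 0.29 ± 0.063 (adjusted p = 0.116 in limma's test), while its other probe sets gave 0.20 and -0.04. Bdnf, a neurotrophin also made in heart, differed by 0.28 ± 0.060 (adjusted p = 0.116 in limma's test), and its other probe set gave 0.04. By oral agent the Bdnf difference was -0.03 ± 0.095 with water, 0.25 ± 0.095 with F68/PG/PEG400, 0.37 ± 0.095 with sunitinib and 0.57 ± 0.10 with sorafenib. The test among agents gave Bdnf an unadjusted p of 0.00179 and an adjusted p of 0.632 in limma's test. Fnip2 differed by 0.16 with either oral vehicle, by 0.47 with sunitinib and by 0.39 with sorafenib. None of these passed the test, and the other probe sets of Fnip2 and Bdnf gave smaller differences.

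The remaining genes in the order of p showed smaller or less even differences. Crbn, a substrate receptor of a ubiquitin ligase, differed by 0.17, and Hbp1, a repressor linked to cell cycle exit, by 0.18, with adjusted p-values of 0.210 and 0.312 in limma's test. Lactb, a mitochondrial protease, differed by 0.21 and Tfap4, a helix-loop-helix factor, by 0.20. Higher values that did not pass were also found for Anp32a (0.26), Pdgfd (0.24), Rnf122 (0.19) and Ociad1 (0.16). Lower values that did not pass were found for Disp1 (-0.16), Zfp324 (-0.15), Ikzf2 (-0.16) and Eppk1 (-0.22). The adjusted p-values of these 10 genes ran from 0.406 to 0.561 in limma's test.

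The direct target and its partners showed no change in RNA that passed the test. The log2 difference was 0.01 ± 0.038 (SE) for Mtor, 0.02 ± 0.039 for Rptor, the subunit that presents substrates to the kinase, and 0.07 ± 0.037 for Fkbp1a. For the substrates it was 0.08 ± 0.062 for Rps6kb1, the S6 kinase, and -0.04 ± 0.066 for Eif4ebp1, a brake on cap-dependent translation. All 5 had an adjusted p of 0.999 in limma's test. Other probe sets gave 0.07 ± 0.043 and 0.15 ± 0.064 for Fkbp1a and -0.05 ± 0.067 for Rps6kb1. The Fkbp1a probe set at 0.15 had an unadjusted p of 0.0247 in limma's test, and none of them passed the adjusted test. An inhibitor of a kinase acts on the protein, so these levels do not check whether mTOR was inhibited, and no protein was measured. Over 42 genes of the mTOR complexes and their regulators, 0 passed, 2 were higher and 2 lower at an unadjusted p under 0.05, and the median was 0.01.

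Gene lists were read against all genes, of which 1.59% were higher and 2.57% lower at an unadjusted p under 0.05, with a median of -0.01. Each called gene belongs to at least one list, so the counts of called members repeat the 4 genes. Among 20 genes of MondoA and ChREBP with their targets, 3 rose (Txnip, Klf10 and Arrdc4), 17 did not pass, and the list's median was 0.04. Bhlhe40, a clock-linked repressor, was the fourth at an unadjusted p under 0.05, at 0.30 ± 0.092 (SE). Of 16 Kruppel-like factors, Klf10 and Klf11 rose and 14 did not pass, with a median of 0.03. Of 30 genes of TGF-beta signalling and its early targets, the same pair rose, 5 were higher and 1 lower at the unadjusted threshold, and the median was 0.02. The members Tgif1 and Bambi, both brakes on TGF-beta signalling, differed by 0.17 and -0.14 without passing the test. Of 24 genes of the thioredoxin system and the alpha-arrestins, Txnip and Arrdc4 rose, and the median was 0.02. Arrdc3, a further alpha-arrestin, differed by 0.11 (unadjusted p = 0.051 in limma's test).

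FOXO targets and fasting genes had 1 called member of 28, Txnip. At the unadjusted threshold 9 were higher (32.1%) and 0 lower, 22 had a positive difference, and the median was 0.06. The others were Gabarapl1, Tcp11l2 (0.19 ± 0.056), Pdk4, which slows glucose oxidation (0.43 ± 0.13), Ccng2 (0.17), Angptl4, an inhibitor of lipoprotein lipase (0.23), the muscle ubiquitin ligases Trim63 (0.12) and Fbxo32 (0.17), and Gadd45a (0.12). None of those 8 passed the adjusted test. In the rats given sunitinib or sorafenib, 23 of 28 were positive, 9 were higher, 1 lower and the median was 0.16, where 2.77% of all genes were higher and 2.88% lower. In the rats given an oral vehicle 14 were positive, 5 were higher, 2 lower and the median was -0.00, where 1.7% of all genes were higher and 3.43% lower. With a kinase inhibitor but without control rat 8M92, 21 were positive, 8 were higher, 0 lower and the median was 0.14. There 667 of 14218 genes were higher and 550 lower. The difference between rats given a kinase inhibitor and rats given an oral vehicle was not tested for the list. Without control rat 8M92, 21 of 28 were positive over all rats, with 6 higher, 1 lower and a median of 0.05, where 2.59% of all genes were higher and 4.23% lower. Without treated rats 3M25 and 3M26, 23 were positive, with 6 higher, 0 lower and a median of 0.08, where 1.27% of all genes were higher and 2.04% lower.

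Fatty acid oxidation showed a like picture in 30 genes, some shared with the fasting list. None passed, 5 were higher (16.7%) and 0 lower at the unadjusted threshold, 25 were positive and the median was 0.06. The 5 were Pdk4, Angptl4, the carnitine carrier Slc25a20 (0.13), the short-chain dehydrogenase Acads (0.09) and the uncoupling protein Ucp3 (0.14). With an oral kinase inhibitor 26 were positive and 11 higher, and with an oral vehicle 15 were positive and 3 higher. Over all 14218 genes, 6795 were positive and 394 higher with an oral kinase inhibitor, and 6502 and 242 with an oral vehicle. Without control rat 8M92, 25 of the 30 were positive and 8 higher with an oral kinase inhibitor, where 7281 of all genes were positive and 667 higher. The split by oral agent was not tested. Of 33 immediate early genes, 0 passed and 5 were higher, among them Gadd45b (0.42 ± 0.117), Ccn1 (0.25) and Zfp36 (0.17), with a median of 0.02. Here 5 were higher and 0 lower with an oral kinase inhibitor, and 0 higher and 3 lower with an oral vehicle. Over all genes 410 were lower with an oral kinase inhibitor and 487 with an oral vehicle. Pdk4 itself differed by 0.44 with an oral vehicle and by 0.41 with an oral kinase inhibitor.

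**Figure D4:**
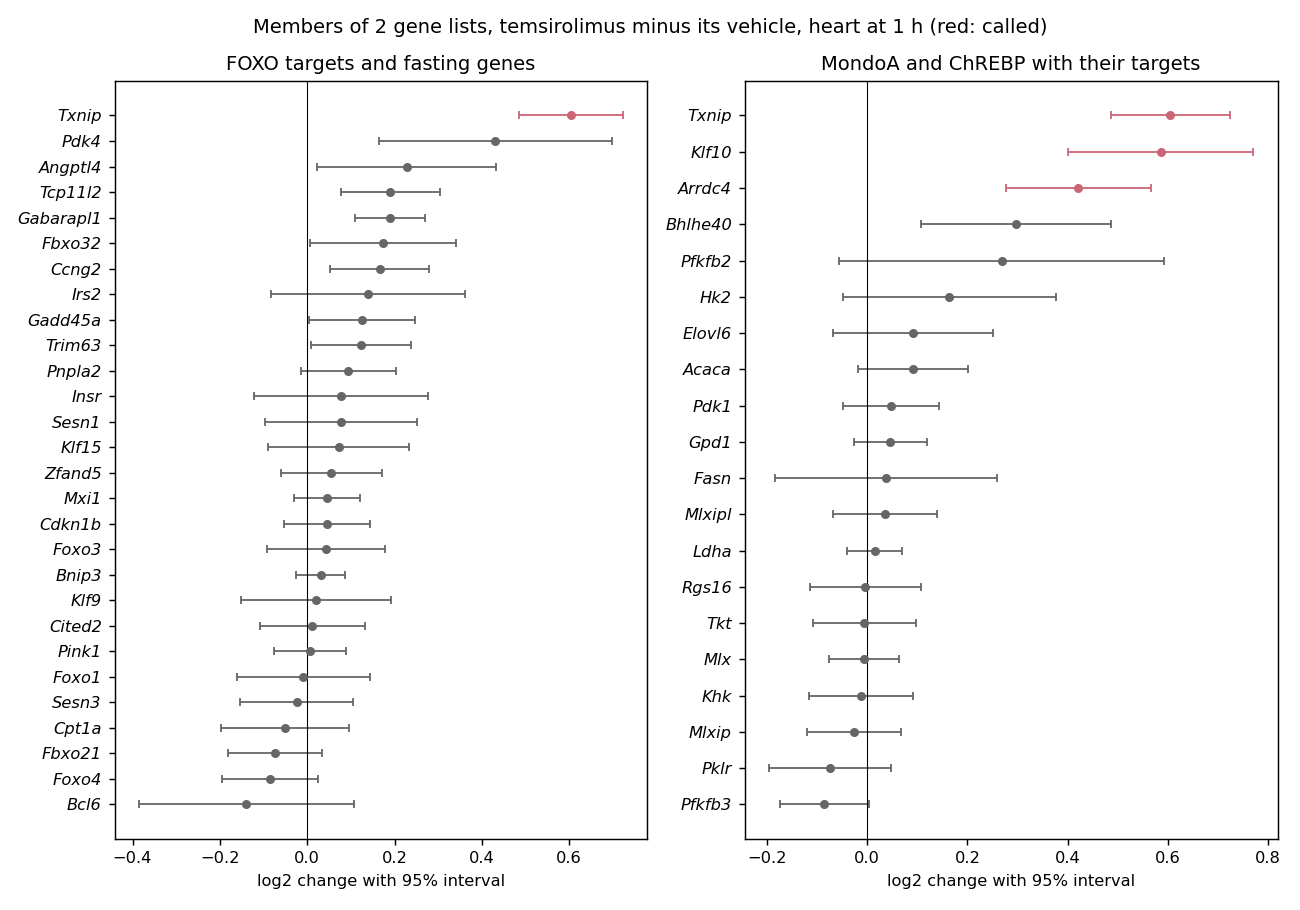
Log2 change between treated and control hearts at 1 h, with its 95% interval (horizontal axes), for each measured member of the lists of FOXO targets and fasting genes and of MondoA and ChREBP with their targets, called genes in red. Of the fasting genes 22 of 28 lie above 0, and of the other list Txnip, Klf10 and Arrdc4 lie apart from the rest.

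Some lists had fewer positive members than those above, where 6134 of all 14218 genes were positive. Of 33 ribosome biogenesis genes, a process that mTORC1 is known to drive, 0 passed, 4 were lower and 0 higher at the unadjusted threshold, 10 were positive and the median was -0.02. The 4 were Rrs1 (-0.13), Rrp9 (-0.11), Wdr43 (-0.08) and Ppan (-0.06), all assembly factors. With an oral vehicle 6 of the 33 were positive (0 higher, 2 lower), and with an oral kinase inhibitor 17 were positive (1 higher, 1 lower) with a median of 0.00. Of 20 genes of cholesterol synthesis and uptake, 0 passed, 4 were lower and 1 higher, with a median of -0.04. Among these 20, 8 were positive, near the share of all genes. The 4 lower at the unadjusted threshold were the enzymes Sqle (-0.23 ± 0.066), Msmo1 (-0.17) and Idi1 (-0.18) and the regulator Srebf2 (-0.07), while Insig1, which retains that regulator in the endoplasmic reticulum, was higher (0.15). Of 21 genes of insulin and IGF signalling, 7 were positive, none passed either threshold and the median was -0.03. By oral agent, 3 of the 21 were positive with an oral vehicle (median -0.05) and 15 with an oral kinase inhibitor (median 0.03). Without control rat 8M92 the latter count was 12 (median 0.01), where 7281 of 14218 genes were positive. With 8M92 kept, 6502 of all genes were positive with an oral vehicle and 6795 with an oral kinase inhibitor. The difference between these sets of rats was not tested for any list. For cholesterol genes 8 of the 20 were positive with an oral vehicle and 9 with an oral kinase inhibitor. Of 36 lysosome and autophagy genes, 5 were higher and 1 lower, with a median of 0.00.

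The other 15 pathway lists had no called member. They were cytosolic ribosomal proteins and translation factors, glycolysis and hypoxia response, heat shock proteins, endoplasmic reticulum chaperones, clock genes, p53 targets, cell cycle, inflammatory mediators, ERK feedback genes, glucocorticoid-responsive genes, ATF4 and amino acid supply, fatty acid synthesis, the respiratory chain, cardiac stress genes and endothelial growth genes. At the unadjusted threshold each held between 0 and 2 higher and 0 or 1 lower members, and their medians lay between -0.02 and 0.06. Named members past the unadjusted threshold were Flt1, a VEGF receptor (0.26 ± 0.073), Spry4, an ERK feedback inhibitor (-0.12), Sesn2, a leucine sensor upstream of mTORC1 (-0.12), and Grk2, a kinase of beta-adrenergic receptors (-0.13). Endothelial markers, which share Flt1, were higher for 2 of 10 members with a median of 0.04, and the part of endothelial RNA in these values was not tested.

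The same 4 genes were followed to 6 and 24 h in other rats with their own controls, in a limma fit over 95 hearts. The Txnip difference was 0.60 ± 0.086 (SE) at 1 h, 0.28 ± 0.084 at 6 h and 0.45 ± 0.084 at 24 h. Txnip thus remained past the threshold at 6 h (adjusted p = 0.0422 in limma's test), where 2.92% of all genes were called, and at 24 h (adjusted p = 0.000234), where 3.2% were. The Klf10 difference was 0.59, 0.22 and 0.23, the Klf11 difference was 0.34, 0.09 and 0.14, and the Arrdc4 difference was 0.42, 0.03 and 0.07. All 3 were largest at 1 h, but none of the 4 genes passed the test of a difference among the hours, with adjusted p-values of 0.405, 0.275, 0.345 and 0.108 for Txnip, Klf10, Klf11 and Arrdc4 in limma's test. At 6 h the hepatocyte marker median was 8.47 in treated and 6.18 in control hearts, and the values of this fit carry no adjustment for it.

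In that fit Fnip2 and Bdnf joined the 4 genes called at 1 h, making 6 (0.0422%), and they were among 27 genes (0.19%) whose response differed among the hours. The Fnip2 difference was 0.29 ± 0.055 at 1 h, -0.19 ± 0.054 at 6 h and -0.04 ± 0.054 at 24 h (adjusted p = 0.00034 over the hours in limma's test). The Bdnf difference was 0.28 ± 0.058, -0.25 ± 0.057 and 0.04 ± 0.057 (adjusted p = 0.000311 in limma's test). Both passed the test at 1 h as higher and at 6 h as lower in treated rats. Between 1 h and 6 h, 3 genes differed (0.0211%): these 2 and Tnip2, a brake on NF-kappaB signalling, by 0.29. Between 1 h and 24 h, 34 genes differed (0.239%), 33 of them with a higher treated minus control value at 1 h. They were led by the chaperones Hspa5 (0.66 ± 0.10), Calr (0.31) and Pdia6 (0.37). These chaperones did not rise at 1 h: of 18 endoplasmic reticulum chaperones, which include them, 0 passed the unadjusted threshold there. The highest difference in that list at 1 h was 0.10, so the treated minus control values of Hspa5, Calr and Pdia6 were negative at 24 h. In heart at 6 h the median of the hepatocyte markers was 6.18 in control and 8.47 in treated rats. The ranges at 6 h overlapped, at 5.89 to 7.19 and 6.06 to 12.1, and a difference by treatment was not tested. The median was 6.48 and 6.39 at 1 h, and 6.40 and 6.29 at 24 h, in these markers. With their level as a covariate the counts were 6 genes between 1 h and 6 h, and Bdnf and Fnip2 differed by 0.58 and 0.55. The counts rested on single rats: without rat 4M42, at 24 h, 133 genes differed between 1 h and 6 h and 65 among the hours. Among the hours 54 differed without rat 8M92, 44 without 4M46 and 41 without 1M5. Between 1 h and 24 h the counts without 8M92, 4M46 and 1M5 were 62, 58 and 53, and without 2M22 the count between 1 h and 6 h was 5.

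The liver and bone marrow of the same rats gave the comparison across tissues. In liver the Txnip difference was 0.17 ± 0.047 (SE) and in bone marrow 0.16 ± 0.047, and neither passed the test there. Txnip signal in liver had a median of 10.83 in controls and 10.96 in treated rats, and in bone marrow the medians were 11.8 and 12.0. The heart difference exceeded that of liver by 0.43 ± 0.071 (adjusted p = 0.0136 in limma's test within rats), as the 1 gene called (0.00703%). It exceeded that of bone marrow by 0.44 ± 0.068 (adjusted p = 0.00389 in limma's test). Klf10 was the other of 2 genes (0.0141%) that differed from bone marrow, by 0.52 ± 0.089 (adjusted p = 0.0104 in limma's test), with 0.06 ± 0.045 in marrow itself. In liver Klf10 was uneven among rats, from 7.75 to 10.6 in controls, and its difference there was 0.43 ± 0.21. The heart minus liver value for Klf10 was 0.16 ± 0.17 (adjusted p = 0.981 in limma's test). The Klf11 difference was 0.30 ± 0.090 in liver and 0.20 ± 0.064 in marrow, and the Arrdc4 difference was 0.13 ± 0.12 and 0.16 ± 0.068. For these 2 genes no difference between tissues passed the test. In its own fit liver had 0 called genes, against 740 at an unadjusted p under 0.05, and bone marrow had 4 (0.0281%), none of them a gene called in heart.

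**Figure D5:**
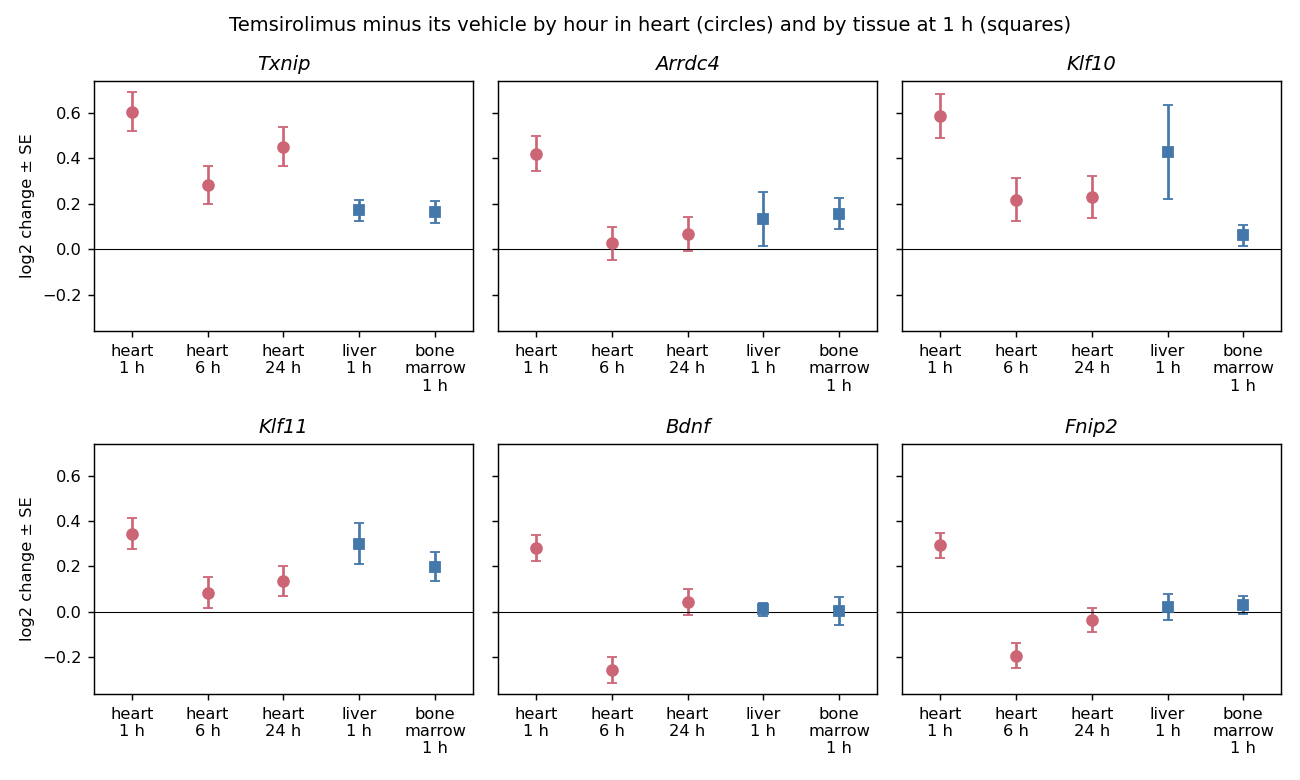
Log2 change between treated and control rats with its standard error (vertical axes) for Txnip, Arrdc4, Klf10, Klf11, Bdnf and Fnip2, in heart at 1, 6 and 24 h (circles) and in liver and bone marrow at 1 h (squares). The heart value at 1 h is the highest for each of the 6 genes, and Bdnf and Fnip2 are below 0 in heart at 6 h.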

How the data were processed

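Total RNA was labelled as biotin cRNA and hybridized to Affymetrix Rat Genome arrays. The deposited values were log2 signals that the authors had made by RMA (background correction, quantile normalization, median polish), with all tissues together. Of 31099 probe sets, 20832 had 1 gene symbol in the platform annotation, 436 had several and 9831 were not listed. The probe set with the highest mean over the hearts stood for each of 14218 genes, of which 14168 matched a RefSeq gene (GRCr8).

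Treated and control hearts were compared with limma 3.58.1 in R 4.3.3 (lmFit, eBayes, Benjamini-Hochberg adjustment over all genes, threshold 0.05), with oral agent and array set as terms, leaving 25 residual degrees of freedom. The set was read from rat numbers. Interaction terms tested the difference among oral agents, sets and hours, and differences between tissues were taken within each rat. The functions for the main comparison and for the tests among oral agents, sets, hours and tissues were run on simulated data. The gene list, promoter and outlier steps were not. Genes were named by rule: all called genes to a limit, then the lowest p-values to 20 in all, and Mtor, Rptor, Fkbp1a, Rps6kb1 and Eif4ebp1. Other genes were named as called in a further test or as list members, some of those after their values were seen. The members, the 27 pathway lists and the 15 cell marker lists were chosen with earlier results of these data known. Microarrays give no read depth, and precision was limited by the number of rats. Alternatives changed the probe set rule, filter, normalization, terms and rats.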

Additional observations from a re-analysis of the deposited data

Results flagged for a closer look

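Groups of 4 rats were tested for 1 rat standing apart by Dixon's ratio, over 40 values in the same rats, or 280 tests. These tests are not independent, and chance gives about 1 in 20 for each. In 19 tests 1 rat stood apart from the other 3. Among named genes these were, in log2 signal, Klf10 in rat 2M13 (8.49), Arrdc4 in rat 8M92 (7.79), Nol8 in rat 2M14 (6.84), Eppk1 in rat 8M92 (8.68), Mtor in rats 7M74 (8.76) and 8M92 (8.46), Fkbp1a in rat 7M80 (12.2) and Rps6kb1 in rat 1M2 (8.77). All of these were control rats. Among cell marker levels they were the endothelial level of rat 7M80 (10.1), the erythroid level of rats 5M49 (10.3) and 7M79 (8.93), the fibroblast level of rat 4M37 (11.2), the hepatocyte level of rat 5M55 (9.91), the macrophage level of rats 2M20 (8.35) and 5M50 (8.50), the platelet level of rat 5M49 (7.47), the Schwann cell level of rat 7M80 (7.01), the skeletal muscle level of rat 2M19 (7.17) and the smooth muscle level of rat 5M56 (8.58).

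The response differed between tissues by a tested log2 difference of 0.43 for Txnip between heart and liver, 0.44 for Txnip between heart and bone marrow and 0.52 for Klf10 between heart and bone marrow. Among the hours in heart it differed for Fnip2 and Bdnf, whose values at 1 h minus 24 h were 0.33 and 0.24. The heart array of rat 6M68, which entered no comparison, had a hepatocyte marker level of 14.4.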

How the results depend on the processing

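Txnip, Klf10, Klf11 and Arrdc4 were called in all 31 fits that left out 1 rat, and 4 or 5 genes were called in each. The 4 genes kept their direction in all 16 other alternatives, among which the number called was 0 to 6. It was 0 in array set 1 alone, 2 in set 2 alone, 1 in rats given oral vehicles alone and 0 in rats given oral kinase inhibitors alone, each with fewer rats. Without rat 8M92 the kinase inhibitor rats gave 4 genes, Arrdc4, Bdnf, Fnip2 and Rab30, while Txnip, Klf10 and Klf11 were not called there. Klf11 was lost when rat 6M68 was kept. Fnip2 and Bdnf passed in the fit over 95 hearts, Fnip2 with the adipocyte level as a covariate, and Nol8 with a filter on mean log2 signal of at least 6 and without rats 3M25 and 3M26. With 1 rat left out, Nol8 passed in 3 fits, Gabarapl1 in 2, and Fnip2 and Bdnf in 1 each. Between 1 h and 6 h, 6 genes were called with the hepatocyte level as a covariate. Without rats 4M46 and 4M42, 95 genes were called among the hours, 127 between 1 h and 6 h and 74 between 1 h and 24 h. Leaving out 1 rat at a time gave 20 to 65, 3 to 133 and 25 to 62 genes in the same order, 0 to 1 in liver and 2 to 6 in bone marrow. Leaving out 1 rat in the tests of hours and tissues, the list counts without some rats and the kinase inhibitor rats without 8M92 were chosen after seeing the data. The cause was not tested. Replicate numbers followed accession order and paired no rats within heart. Tissues were paired by rat, and without that pairing (no replicate block) 1 gene differed between heart and liver and 2 between heart and bone marrow, as with it. With 15 and 16 rats, changes smaller than those called may have been missed.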

Other observations

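The largest log2 differences between treated and control hearts at 1 h were not the called ones and had wide errors. The genes given here were chosen after their values were seen. Clec3b, which encodes tetranectin, differed by 0.72 ± 0.49 (SE), Car3, a carbonic anhydrase abundant in fat and muscle, by 0.64 ± 0.59, and Rbp4, the retinol carrier, by 0.57 ± 0.36. Fam111a, which encodes a protease acting at replication forks, differed by -0.70 ± 0.74, and Myl7, the atrial myosin light chain, by -0.64 ± 0.59. All 5 had an adjusted p of 0.999 in limma's test.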
